A study of Aedes aegypti and Anopheles culicifacies with 47 samples.

Results

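In olfactory tissue of female Anopheles culicifacies, 80 genes were set apart because they read higher at 6pm than at 12pm while their ratio of 6pm over 12pm in brain stayed under a set limit. They were chosen from measured values by a rule on CPM, a gene's read count over the summed gene counts of its library, times 1000000. The rule asked for a mean of at least 10 CPM over the olfactory libraries, and for every olfactory 6pm library to lie above every olfactory 12pm library. It also asked that the brain mean at 6pm plus 1 CPM, divided by the brain mean at 12pm plus 1 CPM, stay under 1.5. Of 14484 genes readable in every library, 7105 reached the level, 765 of those (10.8%) also had separated 6pm and 12pm libraries, and 616 were within the brain limit as well. The 80 with the largest log2 ratio of 6pm over 12pm, after adding 1 CPM to each mean, are the members described here, and a member's rank is its place in that order.

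The samples came from a study of daily gene expression rhythms in mosquito smell organs and brain, here the part on Anopheles culicifacies, a malaria vector that bites at night. Olfactory tissue (the antennae together with the maxillary palps, proboscis and labium) and brain were taken from wild-type adult females of 1 cohort, 5 to 6 days old, at clock times labelled 6am, 12pm, 6pm and 12am. All groups shared a cycle of 12 h light and 12 h dark, 80% humidity and 27 °C, so clock time and light change together. Olfactory tissue had 1 library at 6am (replicate 1), 3 at 12pm, 2 at 6pm (replicates 1 and 3) and 2 at 12am (replicates 2 and 3). Brain had 2 libraries at 6am (replicates 1 and 3), 3 at 12pm and 2 at 6pm (replicates 2 and 3), and no brain library at 12am was used. The study's design text calls the replicates biological, but the labels do not say how animals were pooled, so the p-values below measure the spread between these libraries.

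As background, the antenna, the maxillary palp and the proboscis carry the sensory hairs in which a mosquito's olfactory neurons sit, bathed in a fluid that holds odorant-binding proteins and odorant-degrading enzymes secreted by support cells. In Drosophila, antennae hold their own circadian clocks, transcriptional feedback loops that set daily rhythms of gene expression and of smell sensitivity. Clock neurons in the brain set daily rhythms of activity, and light resets both. The genes in these files carry only identifiers that start with ACUA, with no names or products, and no table used here pairs them with any. So no member is given a function or a sequence, the tissues could not be checked against marker genes, and apart from 4 genes named by identifier the members are given by rank.

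Reads assigned to genes numbered 1193151 to 2992698 in the olfactory libraries and 3278414 to 5533977 in the brain libraries. Olfactory 12am replicate 2 stood apart in the number of genes detected. Its 1193151 assigned reads were close to the 1205439 of 6pm replicate 3. Its share of reads that fell in no gene was 69.2%, against 62.0% in its partner 12am replicate 3 and 68.8% in brain 6am replicate 3. At an equal depth of 1166422 reads it showed 12826 genes with a read, against 10549 in 12am replicate 3 and 10997 to 12036 in the other olfactory libraries. Results that include 12am are therefore given with both libraries and without each.

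The members were mostly genes with few reads. The mean over the olfactory libraries was at least 100 CPM for 7 of 80 members (8.75%, against 16.8% of the 7105 genes at 10 CPM or more). It was under 20 CPM for 51 (63.8%, against 30.04%). Such levels rest on few reads: the median member had 28 and 29 reads in the 6pm libraries and 17, 20 and 24 in the 12pm libraries. The ranking ratio was 12.9-fold for the member of rank 1, 6.26-fold for rank 2 and 2.43-fold for rank 80. These ratios chose the members and are a description. At the edges of the rule, rank 80 had a log2 ratio of 1.27864 and the first gene outside had 1.27856. The other edges compare members with genes kept out by 1 limit alone, with a log2 ratio of at least that of rank 80. The lowest olfactory mean among members was 10.1 CPM, and the highest among genes kept out by the level alone was 9.93 CPM. The highest brain ratio among members was 1.49, and the lowest among genes kept out by the brain limit alone was 1.505. By edgeR's quasi-likelihood test over 10890 genes, 58 genes (0.533%) differed between 6pm and 12pm with an adjusted p under 0.05. Of these 17 (0.156%) were higher at 6pm, and 3 of them were members, those of rank 1, 2 and 6. The rule chose the members on this contrast, so all calls on it are a description. Leaving out 1 library moved that count to 26 (without 12am replicate 2, beside 2.79% of all genes), 22 (without 12am replicate 3, beside 2.17%) and 6 (without 6am replicate 1, beside 0.735%). Without 6pm replicate 3, which leaves 1 library at 6pm, the members' median log2 change was 1.77, against -0.03 over all genes.

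**Figure D1:**
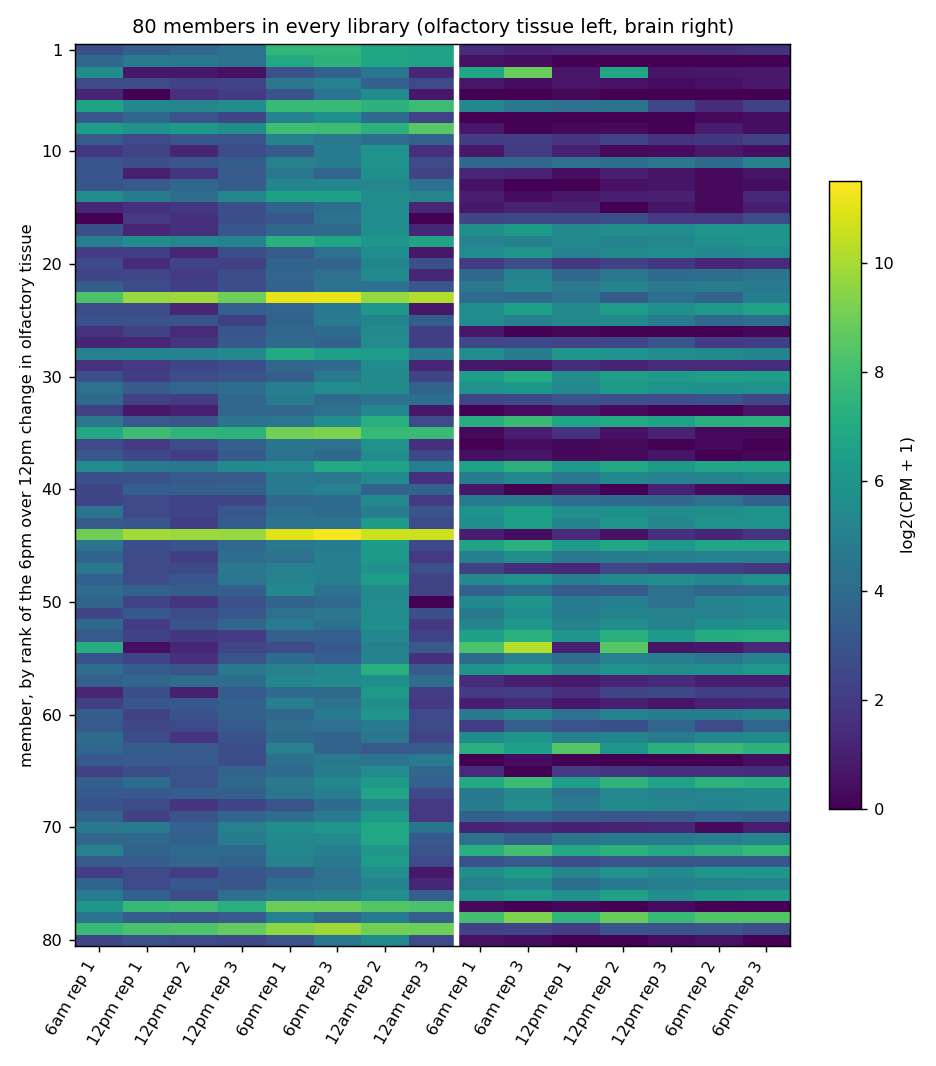
Each row is 1 of the 80 members in order of rank, each column 1 library grouped by tissue and clock time, and the colour is log2(CPM + 1). Both 6pm columns of olfactory tissue read higher than the 12pm columns in every row, as the rule demands, and olfactory 12am replicate 2 is the highest olfactory library in 55 rows.

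ACUA026522, the member of rank 1, had the largest ratio of 6pm over 12pm, by which the members were ranked. It read 6.05 CPM in the olfactory 6am library, 9.91, 12.7 and 19.96 CPM in the 12pm libraries, 193 and 196 CPM in the 6pm libraries and 106 and 93.6 CPM in the 12am libraries. All 4 libraries of 6pm and 12am thus lay above all 4 of 6am and 12pm, and the 12am libraries lay below both 6pm libraries. In the 7 brain libraries it lay between 1.22 and 2.17 CPM. Its line sits near an unreadable stretch in at least 1 deposited table, as do those of ACUA008645 and ACUA010431 below. Bulk tissue gives one reading for many cells, so a change in the number of cells that make a transcript and a change in transcript per cell cannot be told apart, here or below.

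ACUA023815, the member of rank 2, had the same order of clock times. It read 13.4 CPM at 6am, 26.3, 23.7 and 18.4 CPM at 12pm, 122 and 173 CPM at 6pm and 109.8 and 97.0 CPM at 12am in olfactory tissue. In brain it had 2 and 1 reads in the 6am libraries and no read in the 5 other libraries. The order of its olfactory groups was 6pm, 12am, 12pm and 6am, and no libraries of neighbouring groups overlapped.

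Of the other members, 11 also averaged at least 50 CPM over the olfactory libraries, which makes 13 with the members of rank 1 and 2. The 50 CPM boundary was chosen after the values were seen, to separate members with more reads from the rest. The largest CPM of the 80, not corrected for transcript length, was in the member of rank 44. It read 511 CPM at 6am, 948, 868 and 833 CPM at 12pm, 2045 and 2698 CPM at 6pm and 1597 and 1564 CPM at 12am in olfactory tissue, and at most 2.35 CPM in any brain library. Its 4 groups of olfactory libraries did not overlap.

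Rank 23 read 314 CPM at 6am, 842, 888 and 504 CPM at 12pm, 2212 and 2175 CPM at 6pm and 829 and 1154 CPM at 12am in olfactory tissue. Here the 12am libraries overlapped the 12pm libraries, and the 6pm libraries stood clear above all others. Rank 77 read 62.3 CPM at 6am, 210.1, 234 and 149 CPM at 12pm, 477 and 489 CPM at 6pm and 344 and 291 CPM at 12am, again without overlap between clock times. Ranks 44, 23 and 77 all had their lowest olfactory reading in the 6am library.

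The 13 were not uniform. Rank 8 read 86.1 CPM at 6am, 58.1, 72.5 and 52.0 CPM at 12pm, 247 and 241 CPM at 6pm and 167 and 368 CPM at 12am, so its highest library was a 12am one. Rank 6 had its highest reading in 12am replicate 3 as well, with 101 CPM at 6am, 36.1 to 48.1 CPM at 12pm, 217 and 212 CPM at 6pm and 171 and 238 CPM at 12am. Rank 35 stood out at 6pm only, with 529 and 599 CPM there, against 122 CPM at 6am, 173 to 246 CPM at 12pm and 213 and 231 CPM at 12am. Whether ranks 8, 6 and 35 differ in the time of their highest level was not tested.

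**Figure D2:**
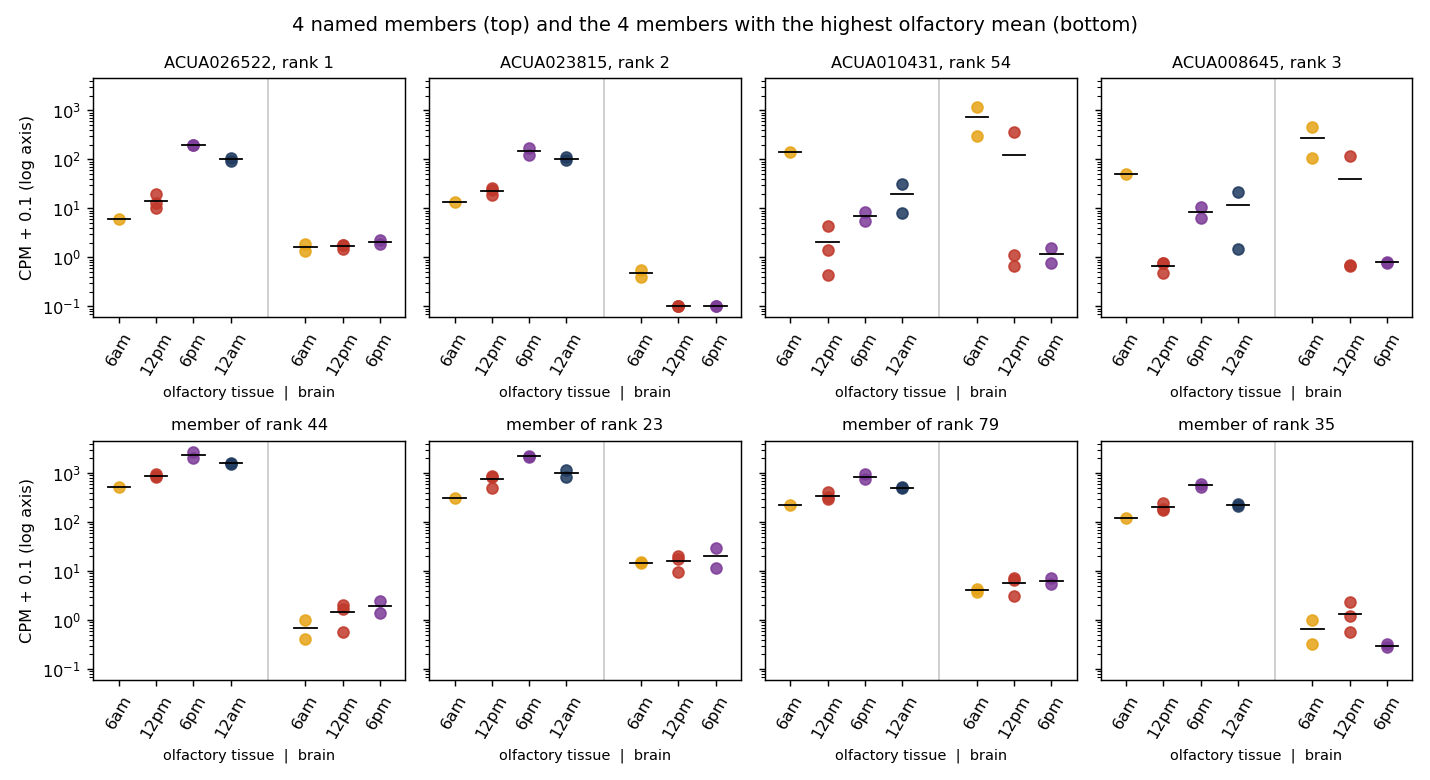
CPM + 0.1 on a log axis for 8 members, with olfactory tissue left and brain right in each panel and clock times in order. Points are libraries and black bars the mean of each tissue and clock time, and in all 8 panels both olfactory 6pm points lie above the 12pm points.

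A pair of members fitted the rule but had their highest olfactory reading at 6am. ACUA008645, the member of rank 3, read 50.2 CPM in the olfactory 6am library, 0.683, 0.668 and 0.391 CPM at 12pm, 6.16 and 10.8 CPM at 6pm and 21.8 and 1.36 CPM at 12am. Behind its place in the ranking were 8 and 13 reads at 6pm, against 2, 2 and 1 reads at 12pm. ACUA010431, the member of rank 54, read 142 CPM at 6am, 0.342, 1.34 and 4.30 CPM at 12pm, 5.39 and 8.30 CPM at 6pm and 31.8 and 8.14 CPM at 12am. For both genes the 6am library was the highest of all olfactory libraries, which was true of no other member.

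Brain showed the same 2 genes high at 6am. ACUA008645 read 108 and 451 CPM in brain at 6am, 0.598, 118 and 0.553 CPM at 12pm and 0.665 and 0.723 CPM at 6pm. ACUA010431 read 300.3 and 1184 CPM at 6am, 0.996, 364 and 0.553 CPM at 12pm and 0.665 and 1.45 CPM at 6pm. In each gene 1 brain library of 12pm, replicate 2, read like the 6am libraries and the other two read near 1 CPM, so these readings depend on the library as well as on its clock time.

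At 12am the medians of the members above and below 50 CPM differed between the libraries. The median reading of the 13 members of at least 50 CPM was 62.3 CPM at 6am, 39.1 to 48.2 CPM at 12pm, 217 and 212 CPM at 6pm, 167 CPM in 12am replicate 2 and 231 CPM in 12am replicate 3. The median of the other 67 was 8.22 CPM at 6am, 5.01 to 8.61 CPM at 12pm, 17.7 and 19.9 CPM at 6pm, 46.1 CPM in 12am replicate 2 and 4.75 CPM in 12am replicate 3. So the 12am medians of the 13 were of like size, and for the other 67 they lie on opposite sides of all other olfactory medians. The boundary does not divide the members cleanly. Above it, rank 28 read 77.9 CPM in 12am replicate 2 and 25.1 CPM in replicate 3, and rank 38 read 98.1 and 29.8 CPM in the same libraries. Below it, rank 32 read 18.4 CPM in replicate 2 and 17.0 CPM in replicate 3, and replicate 2 was not the highest olfactory library for 12 of the 67.

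**Figure D3:**
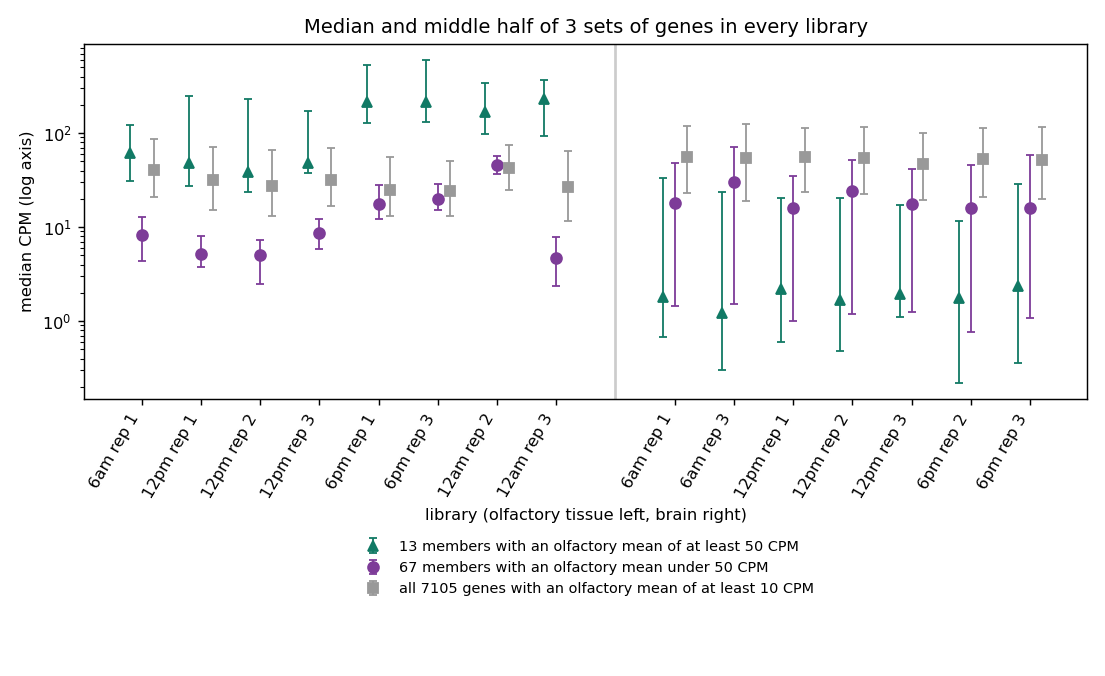
Median CPM (points) and interquartile range (bars) of the 13 members with an olfactory mean of at least 50 CPM, the other 67 members, and all 7105 genes with an olfactory mean of at least 10 CPM, in every library, on a log axis. The 67 members peak at 46.1 CPM in olfactory 12am replicate 2 and have 4.75 CPM in 12am replicate 3, while the 13 members have 167 and 231 CPM there.

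Olfactory 12am replicate 2 was the highest olfactory library for 55 of 80 members (68.8%), against 30.1% of the 7105 genes and 60.7% of the 616 genes within the limits of the rule. All 55 were among the 67 members under 50 CPM, and none was among the 13. Genes at large showed a difference in the same direction: this library was the highest for 41.4% of the 4759 genes between 10 and 50 CPM and for 7.16% of the 2346 genes at or above 50 CPM. The median ratio of 12am replicate 2 over 12am replicate 3, after adding 1 CPM, was 10.7 over the 67 members and 1.06 over the 13, against 1.64 and 0.891 over all genes of those levels. The olfactory mean that the rule requires includes 12am replicate 2, so a gene near 10 CPM could enter through a high reading there. The part of that library's larger number of detected genes in these values was not tested.

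In 12am replicate 3, 75 of 80 members lay below both 6pm libraries, against 34.5% of the 7105 genes, and 58 lay within or below the range of the 12pm libraries, against 79.1%. Over the 616 genes within the limits these shares were 87.0% and 74.0%. Both 12am libraries lay above every 12pm library for 21 members (26.3%, against 9.51% of the 7105 genes), 8 of the 13 and 13 of the 67. These counts share the 6pm or 12pm libraries with the rule, which makes a member look high at 6pm and low at 12pm, and are a description.

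**Figure D4:**
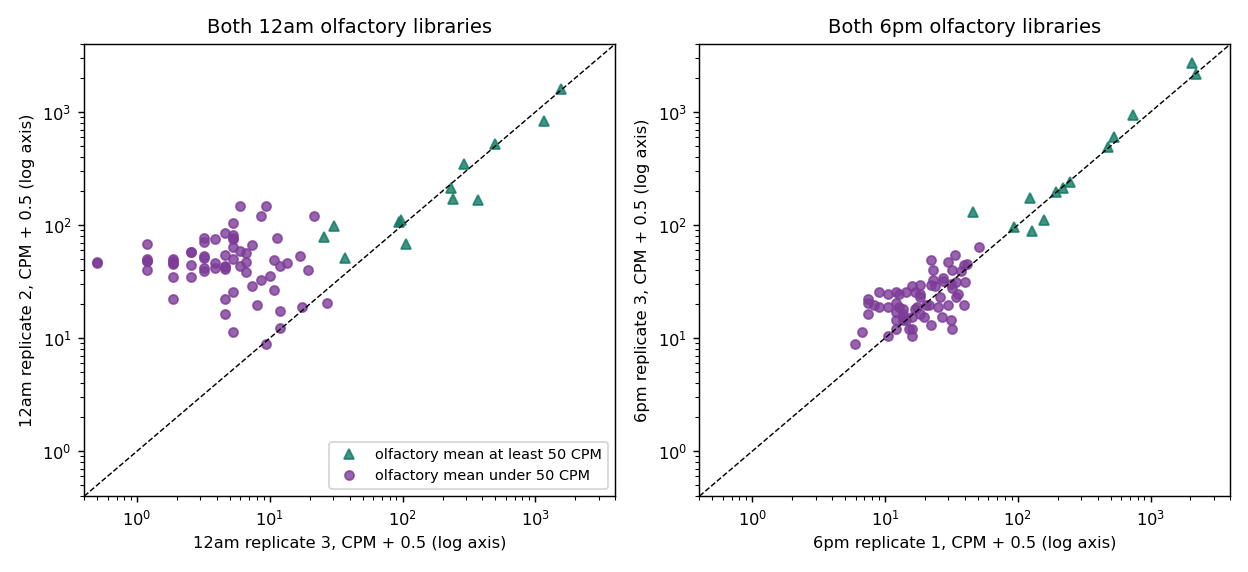
Each point is a member, with 1 library of a clock time against the other on log axes of CPM + 0.5, for olfactory 12am (left) and olfactory 6pm (right), coloured by an olfactory mean of at least or under 50 CPM. At 12am most of the 67 members of lower level lie above the dashed line of equality, toward replicate 2, and at 6pm both sets lie along it.

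The comparison of 12am with 6am used neither time against the other in choosing the members, though both enter the olfactory mean. Members near 10 CPM could enter through a high reading in 12am replicate 2, and 50 of the 80 were kept without it. So the counts and medians of this comparison, with both 12am libraries or 1, are a description. Over 10890 genes, edgeR's quasi-likelihood test called 3 genes (0.0275%), all lower at 12am, and none of the 80 members. At an unadjusted p under 0.05 there were 27 members, beside 8.65% of all genes. DESeq2 called 7 members, beside 0.771% of all genes, and edgeR called 1 without 12pm replicate 3, beside 0.067%. The fitted change was positive for 73 members and negative for 7, while 57.9% of all genes had a positive one. The members' median was 1.70 on the log2 scale, against 0.20 over all genes tested.

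ACUA026522 had 106 and 93.6 CPM at 12am, against 6.05 CPM at 6am, a log2 change of 4.19 (SE 0.80) with an edgeR adjusted p of 0.0580. Its adjusted p ranged from 4.51e-08 to 1 over 13 alternative settings and passed 0.05 in 8 of them. ACUA023815 had 109.8 and 97.0 CPM at 12am, against 13.4 CPM at 6am, a log2 change of 3.10 (SE 0.73) with an edgeR adjusted p of 0.255, which ranged from 2.87e-05 to 1 over 14 settings and passed in 4. In both genes both 12am libraries were the higher ones. ACUA010431 lay lower at 12am by a log2 value of -2.92 (SE 0.75, edgeR adjusted p 0.294, 0.0564 to 1 over 12 settings). ACUA008645 lay lower as well, by -2.34 (SE 0.95, edgeR adjusted p 0.499, 0.0530 to 1 over 11 settings). Neither passed the threshold in any setting.

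Which members were called depended on which 12am library was kept. Without 12am replicate 2 the change was positive for 36 members and negative for 44. Their median was then -0.12, against -0.08 over all genes, and edgeR called 7 members, all higher at 12am, beside 0.591% of all genes. The 7 were ranks 1, 2, 8, 18, 23, 44 and 77, each with an olfactory mean of at least 50 CPM. ACUA026522 then had a log2 change of 4.49 (SE 0.58, edgeR adjusted p 0.000677) and ACUA023815 one of 3.40 (SE 0.55, edgeR adjusted p 0.00543). Without 12am replicate 3 the change was positive for 74 members and negative for 6. The median was 2.13, against -0.11 over all genes, and 23 members were called, beside 5.52% of all genes. Of those 23, 3 averaged at least 50 CPM, and these same 3, ranks 1, 2 and 77, were called whichever 12am library was left out. With 1 library at each time, these tests take the lone library to vary like the other groups.

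The comparisons of 12am with 12pm and of 12am with 6pm reuse libraries of the rule and are given beside it as values. For 12am against 12pm, 16 genes (0.147%) were called, 10 of them (0.0918%) higher, and 1 was a member, ACUA026522, with 106 and 93.6 CPM at 12am, against 9.91, 12.7 and 19.96 CPM at 12pm. Its log2 change was 2.64 (SE 0.47, edgeR adjusted p 0.0153, 2.25e-08 to 0.108 over 14 settings), and the call was lost in 5 settings, among them those without 12pm replicate 1, 12pm replicate 2, 6pm replicate 1 or 6pm replicate 3. ACUA023815 had a log2 change of 1.97 (SE 0.46) there, with an edgeR adjusted p of 0.120. The members' median was 1.52, against 0.09 over all genes, and -0.05 without 12am replicate 2, where 4 members were called, beside 0.404% of all genes. Without 12am replicate 3 the members' median was 2.11, against -0.12 over all genes. Without 6am replicate 1, 3 members were called, beside 0.238% of all genes, and without 12pm replicate 3 there were 2, beside 0.134%.

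For 12am against 6pm, edgeR called 1 gene (0.00918%) and none of the members, with 9 members at an unadjusted p under 0.05, beside 2.55% of all genes. DESeq2 called 1 member, lower at 12am, beside 0.367% of all genes. The members' median was -0.23, against 0.15 over all genes. Leaving out 12am replicate 2 gave -2.00 and leaving out 12am replicate 3 gave 0.43, so for the list as a whole these libraries do not place 12am above or below 6pm. For ACUA026522 the 12am libraries read 106 and 93.6 CPM, against 193 and 196 CPM at 6pm.

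The single 6am library lay below both 6pm libraries for 71 of 80 members (88.8%, against 18.8% of the 7105 genes), among them all 13 of at least 50 CPM. The rule picked members for high 6pm readings, and among all 616 genes within its limits the share was already 74.8%, so the count is a description. It lay below every 12pm library for 23 members (16.9% of the 7105 genes), within their range for 30 (34.2%) and above all of them for 27 (48.9%). Thus 6am and 12pm did not separate for the list, and with 1 library at 6am its own spread is unknown. Both 12am libraries lay above the 6am library for 26 members (32.5%, against 18.4%), 10 of the 13 and 16 of the 67. The 6am library lay between the 12am libraries for 51, against 39.6% of the 7105 genes.

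The members' levels in brain spanned the whole range. The mean over the brain libraries was under 1 CPM for 20 members (25%, against 5.26% of the 7105 genes). It was from 1 to under 10 CPM for 17 (21.3%, against 9.66%), and at least 10 CPM for 43 (53.8%, against 85.1%). Every olfactory library lay above every brain library for 25 members (31.3%, against 16.5%), and every brain library above every olfactory library for 10 (12.5%, against 30.7%). The limit on the brain ratio is easily met by a gene with almost no brain reads, since 1 CPM is added to both means. So for 20 members the brain limit says little beyond a brain level near 0.

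Olfactory tissue was set against brain at 6am, a time that the rule used only in the olfactory mean. Over 12083 genes, edgeR called 30.9% of genes, 16.6% higher and 14.3% lower in olfactory tissue. Of the 80 members 35 were called, 23 of them higher and 12 lower in olfactory tissue. The members' median log2 difference was -0.05, against -0.03 over all genes. Members with few brain reads passed the filter on low counts through their olfactory reads, so the count is a description: 13 of the 23 had a brain mean under 1 CPM.

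The largest tissue difference was in the member of rank 44. It had 511 CPM in the olfactory 6am library, against 0.901 and 0.305 CPM in the brain 6am libraries, a fitted log2 difference of 10.09 (SE 0.68, edgeR adjusted p 2.45e-08) that rests on 4 and 1 brain reads. ACUA026522 had 6.05 CPM in olfactory tissue at 6am, against 1.80 and 1.22 CPM in brain, a log2 difference of 2.49 (SE 0.57, edgeR adjusted p 0.00338, 0.00137 to 0.0265 over 20 settings). ACUA023815 had 31 reads in olfactory tissue at 6am, against 3 in the brain libraries together, a ratio per assigned read of 34.5 with an exact 95% counting interval of 10.8 to 176. Ranks 44, 1 and 2 passed the filter through their olfactory reads and the olfactory side is 1 library, so these values are a description.

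Lowest of the members called was rank 78, with 20.8 CPM in the olfactory 6am library, against 278 and 612 CPM in brain, a log2 difference of -3.85 (SE 0.70, edgeR adjusted p 0.000504). Members that were not called ran from -6.50 to 5.31. Rank 66 had 10.4 CPM in olfactory tissue, against 126 and 235 CPM in brain, a log2 difference of -3.54 (SE 0.80, edgeR adjusted p 0.00285). Ranks 78 and 66 also read higher in every brain library than in every olfactory library. The tissue difference did not pass the test for ACUA010431 and ACUA008645, at -1.80 (SE 2.67, edgeR adjusted p 0.649) and -1.90 (SE 2.36, edgeR adjusted p 0.583).

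The number called at 6am moved with the libraries kept, and why was not tested. It was 54 members, 27 in each direction, both with 12am replicate 2 left out and with 12am replicate 3 left out, where 44.4% and 42.3% of all genes were called. It was 23 members without brain 6am replicate 3, where 19.6% of all genes were called. Olfactory and brain libraries differ in depth, and tissue and library preparation cannot be told apart here.

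**Figure D5:**
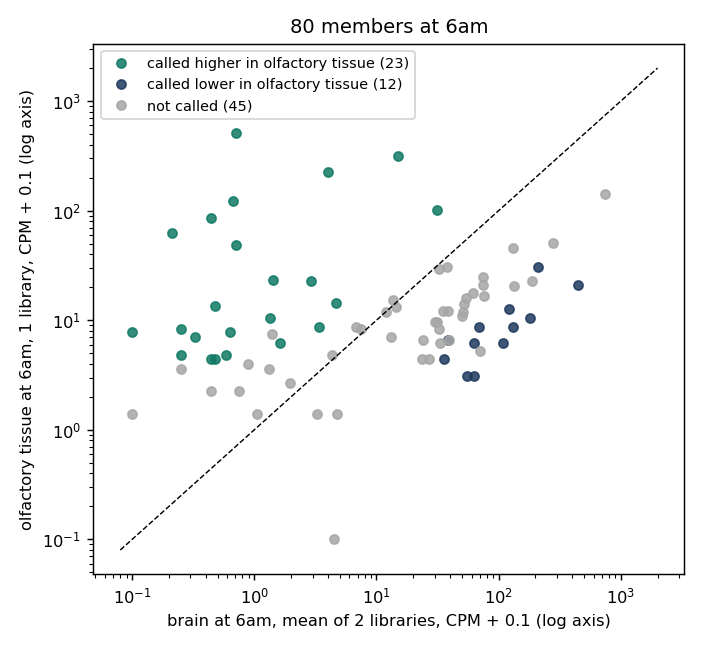
Each point is a member, with CPM + 0.1 in the olfactory 6am library against the mean of the 2 brain 6am libraries on log axes, coloured by the call of edgeR's test. The 23 members called higher lie above the diagonal and the 12 called lower lie below it, and 45 were not called.

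In brain the rule limited only the 6pm mean over the 12pm mean, from above, and it did not ask for a flat level. Both brain 6pm libraries lay above every brain 12pm library for 17 members (21.3%, against 17.1% of the 7105 genes) and below every one for 8 (10%, against 17.4%). So the words evening rise only in olfactory tissue go further than the rule, and whether the change differs between the tissues was not tested, since the rule used both contrasts. In all, 55 of the 80 members passed the filter on low counts in brain.

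The brain comparisons with 6am share the 6pm or 12pm brain libraries with the rule. For 6pm against 6am, edgeR called 229 of 9908 genes (2.31%), 180 higher (1.82%) and 49 lower (0.495%), and 3 members, 2 higher and 1 lower, with a member median of 0.10 and a median of -0.02 over all genes. Rank 6 had 1.77 and 3.61 CPM in brain at 6pm, against 38.8 and 23.8 CPM at 6am, a log2 change of -3.38 (SE 0.65, edgeR adjusted p 0.0335). Rank 18 had 54.3 and 62.9 CPM in brain at 6pm, against 33.1 and 32.03 CPM at 6am, a log2 change of 0.98 (SE 0.21, edgeR adjusted p 0.0335). Rank 71 had 29.7 and 38.1 CPM in brain at 6pm, against 18.03 and 10.7 CPM at 6am, a log2 change of 1.35 (SE 0.31, edgeR adjusted p 0.0478). So ranks 18 and 71 rose in brain by 6pm, relative to 6am, and rank 6 fell there while its olfactory reading at 6pm was 217 and 212 CPM, against 101 CPM at 6am.

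Each of these brain calls was lost without brain 6pm replicate 2 and without brain 6pm replicate 3, and without at least 1 other brain library. With brain 6pm replicate 2 or replicate 3 left out no member was called, beside 0.867% and 0.956% of all genes, and with 12pm replicate 1 left out 1 was, beside 2.15%. For 12pm against 6am, 45 genes (0.454%) were called and none of the members by edgeR or by DESeq2, which called 3.96% of all genes, with 8 of 55 members at an unadjusted p under 0.05 by edgeR, beside 19.03% of all genes. Leaving out brain 6am replicate 1 gave 6 calls among 57 members tested, beside 14.5% of all genes, and leaving out brain 12pm replicate 2 gave 1 among 54, beside 0.437%. The member median was -0.08, against 0.00 over all genes.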

How the data were processed

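The authors deposited 1 table per library of whole-number read counts per gene, made, per the submitters' processing notes, with bcl2fastq, FastQC, STAR and HTSeq. No version, genome build, annotation or strand setting is given in the sources used here, so genes that overlap, lie antisense or have near-identical copies are uncertain. RNA was total RNA extracted with Trizol and prepared with a NEBNext Ultra II kit, per the labels. Of 23 Anopheles samples listed, 15 had a table used here and 8 were not analysed here. In 14 of the 15 tables, 27 stretches of text were overwritten by unreadable characters. Of 14729 genes, 245 were unreadable in at least 1 table and left out. Another 1876, among them 15 members including ACUA026522, ACUA008645 and ACUA010431, sat within 1024 characters before such a stretch. Lines naming no gene held 57.6% to 73.7% of reads and were left out of totals and tests.

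From the deposited counts, CPM were computed against summed gene counts. Tests used edgeR 4.0.16 (R 4.3.3) with TMM scaling, filterByExpr and robust quasi-likelihood, fitted on all genes of the olfactory, the brain or both tissues' libraries with 1 group per tissue and clock time. Adjusted p-values are Benjamini-Hochberg over all genes tested, with a threshold of 0.05. The 7 comparisons reported are all that were made. DESeq2 1.42.0, other scalings, filters, a replicate block and leaving out each library were alternatives. The scripts were tested on simulated counts. For olfactory 12am against 6am edgeR recovered 9% of 4-fold and 45% of 8-fold changes, with 2 false calls among 56. DESeq2 recovered 32% and 66% there, with 16 false calls among 114. For brain 6pm against 6am edgeR recovered 94% and 99%, with 16 false calls among 209. No 2 libraries were duplicates (highest correlation 0.987, with 6.04% of counts equal). The counting interval covers counting error only, since reads had no molecular identifiers.

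The members and lists were chosen with earlier results of these data known. Named by identifier were the first 2 members by rank and the 2 with the smallest p among members lower at 12am than at 6am. Marker genes listed for olfactory, neural, glial, muscle, fat body, photoreceptor and clock cells could not be looked up without names.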

Additional observations from a re-analysis of the deposited data

Results flagged for a closer look

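In 8 of the 80 members, every olfactory 6pm library lay above every olfactory 12pm library while both brain 6pm libraries lay below every brain 12pm library, so the libraries of the 2 tissues lay in opposite order. They were ranks 6, 20, 25, 27, 28, 35, 37 and 70. The olfactory side is fixed by the rule and the difference between the tissues was not tested. Both brain 6pm libraries lay below every brain 12pm library in 10% of the members, against 17.4% of the 7105 genes with an olfactory mean of at least 10 CPM. The brain side rests on few reads for some of them. In brain, rank 37 had 0 and 1 reads at 6pm, against 1, 1 and 2 at 12pm, rank 35 had 1 and 1 reads, against 11, 2 and 4, and rank 70 had 1 and 5 reads, against 5 in each. The member of rank 25 had 11.6 and 24.9 CPM at 6pm, against 6.15, 7.02 and 3.52 CPM at 12pm in olfactory tissue. In brain it had 12.8 and 15.9 CPM at 6pm, against 44.6, 44.9 and 25.7 CPM at 12pm.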

How the results depend on the processing

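Which genes were members depended on the rule's settings: of the 80, 31 were kept with a level of 5 CPM, 29 with 20 CPM, and 31 to 56 when 1 olfactory 6pm or 12pm library was left out: leaving out 12pm replicate 3 kept 31, 6pm replicate 1 kept 32, 6pm replicate 3 kept 42 and 12pm replicate 2 kept 52. Without 12am replicate 2, an alternative chosen after seeing the data, 50 were kept. Other settings of the rule kept 57 to 68. Counts of members called were as follows, with the percent called over all genes tested in brackets. For olfactory 6pm against 12pm (3) they were 15 with DESeq2 (1.56%), 6 with its size factors (0.643%), 10 without scaling (1.35%) and 8 without a filter (0.602%). At a mean of at least 50 counts, 12 of the 18 members left were called (4.29%). With 1 library of 6am, 12pm or 12am left out the counts were 2 to 26 (0.419% to 2.79%). For 12am against 6am (0) they were 7 (0.771%), 1 (0.0643%), 1 (0.101%), 1 (0.0743%) and 4 (of 18, 0.543%) in that order. With 1 of the 12pm libraries left out they were 0 to 1 (0.0476% to 0.067%). For 12am against 12pm (1) they were 4 (0.826%), 3 (0.202%), 4 (0.422%), 4 (0.26%) and 5 (of 18, 1.18%) in that order. They were 0 without genes near unreadable stretches (0.138%) and 0 to 49 with 1 library left out (0.0363% to 17.1%). The 49, beside 17.1% of all genes, came without 12am replicate 3, which leaves 1 library at 12am. For 12am against 6pm (0) DESeq2 called 1 (0.367%). For brain 6pm against 6am (3) they were 4 with DESeq2 (4.03%) and 1 to 4 with 1 of the brain 12pm libraries left out (1.95% to 2.43%). For brain 12pm against 6am (0) they were 0 with DESeq2 (3.96%) and 0 to 1 with 1 of the brain 12pm libraries left out (0.0608% to 0.437%). For olfactory tissue against brain at 6am (35) the count was 17 of the 47 members left at a mean of at least 50 counts (37.0% of all genes) and 23 to 54 with 1 library left out.

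The members' median log2 change reversed for 12am against 6am (-0.117 without 12am replicate 2, up to 2.13). For olfactory tissue against brain it was -0.59 without scaling, where the median of all genes was -0.57, and -0.245 to 0.0268 with 1 library left out, reversed without brain 6am replicate 1. For brain 6pm against 6am it was -0.0359 without scaling and -0.0864 to 0.334 with 1 library left out, and for brain 12pm against 6am -0.349 to 0.153. Without scaling, 38.8% of tissue calls were higher in olfactory tissue, against 53.7%. Of calls at 6pm against 12pm, 42.9% were higher with DESeq2, 41.4% with its size factors and 29.3% with TMM. The cause of these changes was not tested.

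Deviations of same-numbered libraries from their group means correlated from -0.551 to 0.410. In a group of 2 libraries the deviations are equal and opposite, so these values cannot settle whether replicate numbers pair the libraries. With a replicate block no member was called for 12am against 12pm (0.0735% of all genes) or for 12am against 6am (0.00918%). For brain 6pm against 6am 1 member was called (2.14%). Depth limits the 67 members under 50 CPM, whose median read count was 7 to 55 over the olfactory libraries.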
